A study of Danio rerio with 28 samples.

Results

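Gene expression in zebrafish embryos kept in vehicle was compared between 4 and 3 days post fertilization (dpf). The arrays compared are the 4 of 4 dpf DMSO and the 4 of 3 dpf DMSO, 8 of the 28 arrays of the series, and they were chosen by their titles and not by any measured value. Each array was hybridized with RNA from 1 pool of 30 whole embryos of the wild-type strain DZ. The 4 dpf pools were collected at 104 hours post fertilization (hpf) and the 3 dpf pools at 72 hpf. All of these embryos had been kept from about 3 hpf in medium with 0.1% DMSO, renewed daily, so both stages carried the solvent. The remaining arrays hold DMSO pools of 1 and 2 dpf and pools exposed to 1 µM of 17β-estradiol (E2) at the 4 stages. Pools with the same replicate number were taken as a pair, and different numbers came from different spawnings.

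The harvests at 4 and 3 dpf lay 32 h apart, 8 h more than a full day, whereas those at 1, 2 and 3 dpf (24, 48 and 72 hpf) fell at the same hour of the day. Age and hour of the day therefore cannot be told apart between the stages compared here. The methods state a light cycle for the tanks of the adult fish and none for the dishes of the embryos.

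In these hours a zebrafish embryo that has left its chorion becomes a free-living larva. The gut lumen opens, the exocrine pancreas fills with digestive enzymes, the liver grows and takes over plasma protein synthesis, and yolk is used up before feeding starts. Photoreceptors complete their outer segments, glia begin to wrap axons, gills and skin ionocytes exchange ions and ammonia, and cell division becomes confined to growth zones. A circadian clock runs in nearly all cells of the embryo. In it Clock and Bmal proteins activate the period, cryptochrome and Rev-erb genes, whose products repress Clock and Bmal activity or expression in turn, so that these genes rise and fall over each day.

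Each array measured 43603 probes, of which 15721 had a gene name, for 10986 genes. Between 66.4% and 73.1% of spots were well above background on the 8 arrays, and 0 were saturated. Spearman's rho over all probes was 0.969 to 0.987 between arrays of 4 dpf, 0.968 to 0.989 between arrays of 3 dpf, and 0.957 to 0.980 across the stages. Of the 8 arrays, 7 were nearest to an array of their own stage, and replicate 1 of 3 dpf was nearest to replicate 1 of 4 dpf, which lay on the same slide. Signals are given on the log2 scale after quantile normalization, and a change is the 4 dpf value minus the 3 dpf value on that scale, with its standard error (SE). Each gene is given by its brightest probe. With 4 pools a stage, it is the number of arrays that sets how precise these values are.

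Limma gave an adjusted p under 0.05 for 6231 of the 43603 probes (14.3%), 2701 (6.19%) of them higher at 4 dpf and 3530 (8.1%) lower. An unadjusted p under 0.05 was found for 11976 probes, and the threshold of the study's methods (p of at most 0.01 and at least 1.4-fold) was passed by 2547 higher (5.84%) and 2850 lower probes (6.54%). By gene, 1165 of the 10986 named genes rose (10.6%) and 1303 fell (11.9%). The median change was 0.97 for the genes that rose and -0.56 for those that fell, and 552 genes rose at least 2-fold whereas 149 fell as much. A change of at least 16-fold was seen for 54 genes that rose and 5 that fell. The median change over all named genes was -0.06 and the median SE of a probe 0.17. Fewer passed without the replicate number as a block (1574 higher and 1173 lower). Without replicate 2 of 3 dpf 1777 rose, and the count that fell was 1614 without pair 4, 1630 without replicate 2 of 3 dpf, 1769 and 1949 without replicates 3 and 2 of 4 dpf, and 2020 without replicate 1 of 3 dpf. In pairs 3 and 4, whose arrays were scanned on 1 day, the mean change had the sign of the fit for 2700 of the 2701 higher and 3524 of the 3530 lower probes, but these pairs were part of that fit. Both of their 3 dpf arrays lay on 1 slide and both 4 dpf arrays on another, so stage and slide cannot be told apart there. The arrays of pair 2 differed in slide and in scan day, and those of pair 1 shared both.

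Members of 30 gene lists (964 names matched of 1392 sought) were followed, each list for an organ or a process. The lists were chosen with earlier results of these data known. The share of a list's genes that was called, set against that of all named genes, is therefore a description and not a test. The plot of list members by organ and process shows where the changes lay. In RNA of whole embryos, more cells of a type and more RNA per cell cannot be told apart. Named genes were mostly picked for large called changes, so agreement of pairs and groups without overlap follow largely from that choice. All 4 pairs had the sign of the fit for 1159 of the 1165 genes that rose and 1295 of the 1303 that fell. How many of all genes had no overlap was not counted.

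**Figure D1:**
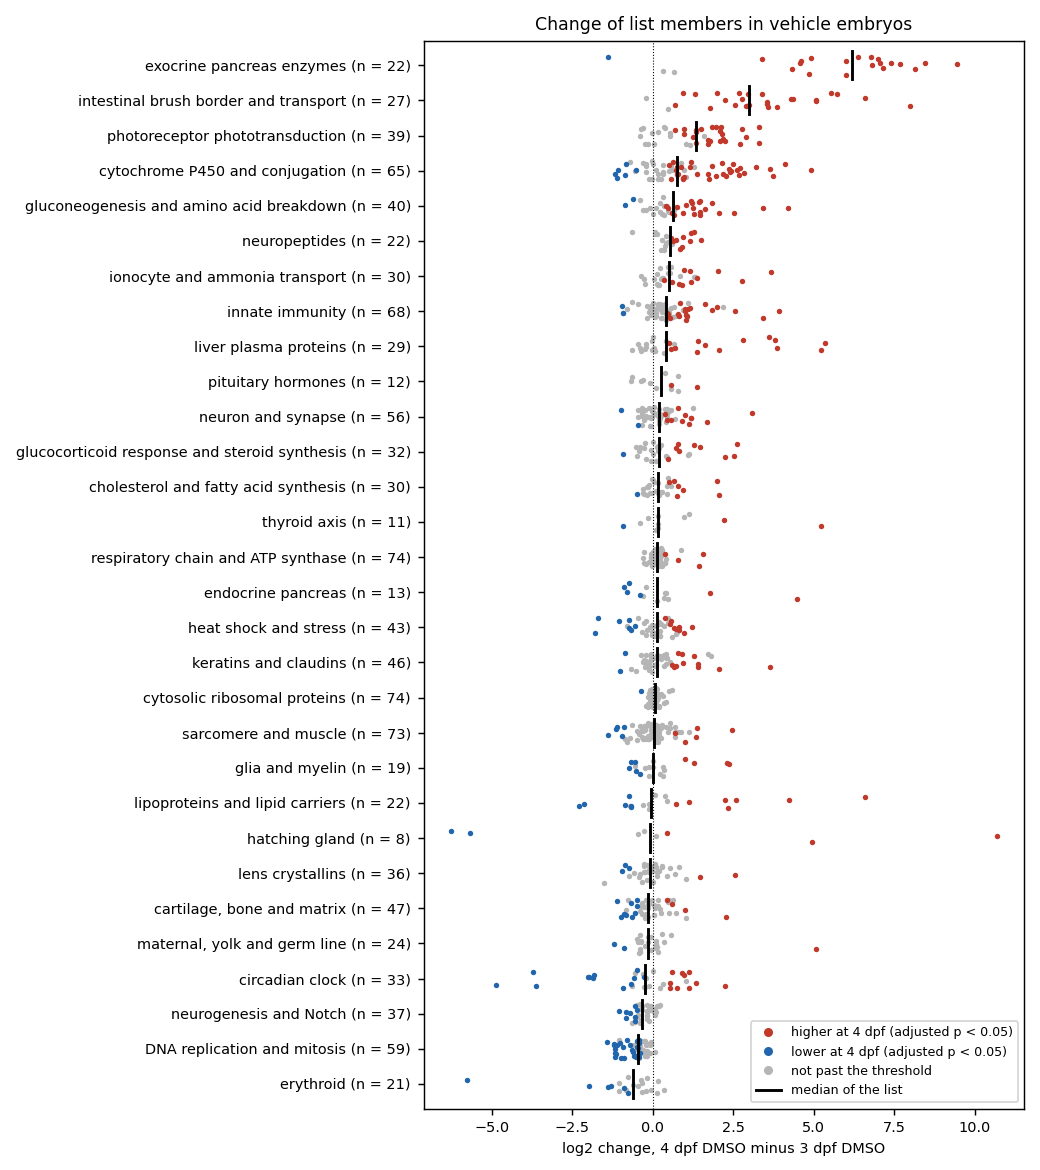
Log2 change (4 dpf DMSO minus 3 dpf DMSO) of the genes of each list, 1 point per gene, with lists ordered by their median (black bars). Red points rose and blue points fell with an adjusted p under 0.05, and grey points did not pass. The medians lie between 6.20 for exocrine pancreas enzymes and -0.61 for erythroid genes, and the hatching gland list reaches from 10.69 to -6.27, both ends set against signals at background on some arrays.

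The list with the highest median change was that of the digestive enzymes that acinar cells of the pancreas secrete. Of 22 genes in the exocrine pancreas list, 19 rose and 1 fell (90.9% called, against 22.5% of all named genes), with a median change of 6.20. For ctrb.2, a chymotrypsinogen gene, the log2 signals were 14.01, 15.03, 13.87 and 14.07 in the 4 dpf pools, against 4.80, 5.12, 4.17 and 5.08 in the 3 dpf pools. Every 4 dpf pool was far above every 3 dpf pool, a 701-fold difference (change 9.45, SE 0.53, adjusted p = 1.34e-05). The trypsin gene prss59.1 had signals of 15.11, 15.70, 14.82 and 14.69 at 4 dpf, against 7.39, 7.23, 6.59 and 6.57 at 3 dpf (change 8.13, SE 0.93, adjusted p = 0.000799). Pancreatic amylase amy2a, which digests starch, had 14.52, 15.35, 14.87 and 14.91 at 4 dpf, against 7.67, 7.65, 7.97 and 8.09 at 3 dpf (change 7.07, SE 0.23, adjusted p = 6.86e-07). Neither gene's groups overlapped. Both carboxyl ester lipases rose as well, cel.2 by 8.45 (SE 0.30) and cel.1 by 7.67 (SE 0.39), although they were well above background on only 2 and 1 of the 4 arrays of 3 dpf.

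The proteases ctrl (128-fold, SE 0.65 on the log2 scale) and ela3l (7.41, 170-fold), the amylase copy amy2al2 (7.15, 142-fold) and the carboxypeptidase cpa5 (6.01, 64.3-fold) rose with them. Outside the list, the chymotrypsinogen copy ctrb.3 (change 8.87) and zgc:153968 (8.20, with 2 of 4 arrays of 3 dpf well above background) were also among the 12 largest rises. The exception was amy2al1, another amylase copy, which had 3.02, 2.64, 3.13 and 2.90 at 4 dpf, against 4.18, 3.83, 4.67 and 4.58 at 3 dpf (change -1.39, SE 0.19, adjusted p = 0.00172), with no overlap. Of the 2 genes that did not pass, ptf1a, the transcription factor of acinar progenitors (change 0.65), was named after its value was seen. Whether probes of near-identical enzyme copies also bound each other's RNA was not tested.

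Genes of the intestinal lining rose almost as a whole, 25 of 27 with 0 lower (92.6% called) and a median change of 2.97. Intestinal fatty acid binding protein fabp2 had log2 signals of 15.35, 15.39, 15.09 and 14.93 at 4 dpf, against 13.15, 12.79, 12.84 and 13.02 at 3 dpf (change 2.24, SE 0.18, adjusted p = 0.000111). Villin, vil1, which bundles actin in microvilli, had 12.10, 12.90, 12.59 and 12.58 at 4 dpf, against 9.22, 9.16, 9.95 and 9.99 at 3 dpf (change 2.96, SE 0.27, adjusted p = 0.00024). The groups did not overlap for either. Larger rises were those of fabp6, the bile acid binding protein of the distal gut (change 6.58, 95.7-fold), and the chitinases chia.2 (7.97, 251-fold) and chia.1 (5.53, 46.1-fold). The cathepsin ctsbb was at background on all 4 arrays of 3 dpf and was at least 26.6-fold higher at 4 dpf (adjusted p = 1.81e-05), a bound set against the higher, on each array, of the probe's own signal and the lowest signal well above background. The gene ctsbb belongs both to this list and to that of germ line and yolk genes.

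In the liver list, of plasma proteins together with fabp10a and uox, 13 of 29 genes rose and 0 fell, with a median of 0.41. The share called was 44.8%, against 22.5% of all named genes. The liver fatty acid binding protein fabp10a, the gene used most often to mark hepatocytes in zebrafish, had 14.39, 14.54, 14.12 and 14.14 at 4 dpf, against 10.80, 9.71, 11.22 and 11.08 at 3 dpf (change 3.59, SE 0.48, adjusted p = 0.00172). The vitamin D binding protein gc had 13.57, 13.45, 13.28 and 13.00 at 4 dpf, against 9.49, 9.01, 9.80 and 9.81 at 3 dpf (change 3.80, SE 0.30, adjusted p = 9.29e-05). All 4 dpf pools exceeded all 3 dpf pools for both genes. Transthyretin, ttr, a carrier of thyroid hormone, rose 37.5-fold (change 5.23, SE 0.40), and complement component c3a.2 rose 14.6-fold (3.87, SE 0.45). The fetuin gene ahsg2 was at background on all arrays of 3 dpf and at least 15.1-fold higher at 4 dpf (adjusted p = 5.64e-07), although another probe of it changed by 1.22. Coagulation genes f2 (-0.01), fgb (-0.20), fgg (-0.23) and f10 (0.05), named after their values were seen, did not pass.

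**Figure D2:**
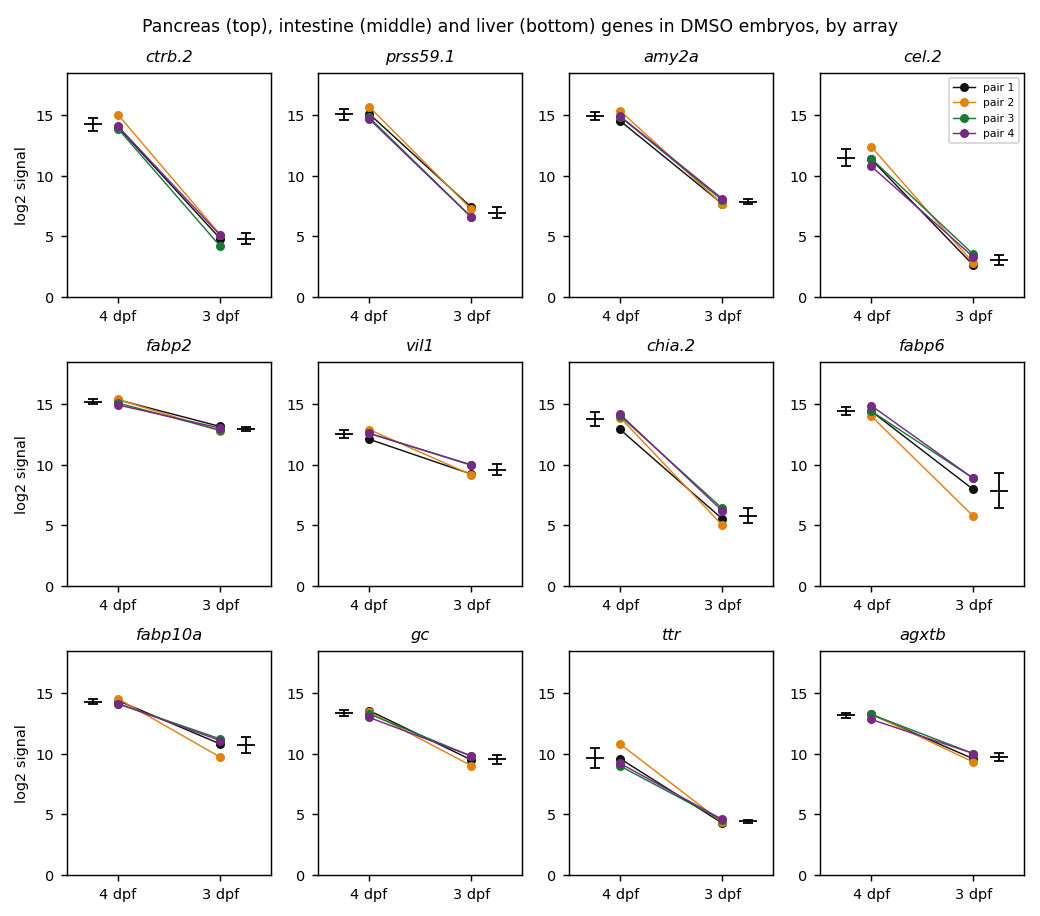
Log2 signal of pancreas (ctrb.2, prss59.1, amy2a, cel.2), intestine (fabp2, vil1, chia.2, fabp6) and liver genes (fabp10a, gc, ttr, agxtb) on each array, 4 dpf DMSO on the left and 3 dpf DMSO on the right of each panel, with lines joining pairs and black bars for the mean and SD (n = 4). All 4 pairs were higher at 4 dpf for each of the 12 genes, and no groups overlapped. Most were picked for large called rises, so this was largely set by the choice.

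In a list of cytochrome P450 enzymes, conjugating enzymes and the receptors that regulate them, 34 of 65 genes rose and 6 fell (61.5% called, median 0.77). The cytochrome P450 gene cyp3a65, of the family that oxidizes drugs and steroids, had 9.83, 11.74, 11.42 and 12.08 at 4 dpf, against 5.97, 6.27, 6.46 and 6.69 at 3 dpf (change 4.92, SE 0.40, adjusted p = 0.000112). Replicate 1 was the lowest at 4 dpf and still above every 3 dpf pool. The P450 genes cyp2k18 (4.10), cyp2ad2 (3.73, 2 of 4 arrays of 3 dpf well above background) and cyp2n13 (3.64) rose too, although a second probe of cyp2k18 changed by -0.14. In the other direction, P450 genes of the cyp2aa cluster fell. For cyp2aa3, outside the list and among the 12 largest falls, signals were 8.85, 7.76, 7.35 and 6.37 at 4 dpf, against 10.60, 10.48, 9.86 and 9.78 at 3 dpf (change -2.60, SE 0.28, adjusted p = 0.000554). The falls of cyp2aa4 (-1.19), cyp2aa8 (-1.09) and cyp2aa2 (-0.87) were called in 7, 8 and 9 of 18 alternative analyses. The count of 6 that fell in this list was 0 without replicate 2 of 3 dpf, without replicate 3 of 4 dpf or without pair 4, and 1 and 3 without replicate 2 of 4 dpf and replicate 1 of 3 dpf.

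In a list of amino acid breakdown and glucose metabolism genes, 21 of 40 rose and 2 fell (57.5% called, median 0.63). The list also holds genes of glucose use such as hk1 and pklr, and glula and glulb, which are in the glia list too. The gene for alanine-glyoxylate aminotransferase, agxtb, had 13.25, 13.30, 13.25 and 12.84 at 4 dpf, against 9.58, 9.31, 10.01 and 10.02 at 3 dpf (change 3.43, SE 0.42, adjusted p = 0.00106). Tryptophan dioxygenase tdo2b (change 4.19, SE 0.38, 1 of 4 arrays of 3 dpf well above background), tyrosine aminotransferase tat (2.53, SE 0.46), histidine ammonia lyase hal (2.05, SE 0.26) and the glucose-6-phosphatase gene g6pc1a.1 (1.48, SE 0.21) rose as well. The falls were those of cbsb, which makes cystathionine from homocysteine (-0.87, SE 0.14), and of bhmt, which turns homocysteine back into methionine (-0.63, SE 0.13). In lipid synthesis 7 of 30 genes rose and 1 fell, and the share called, 26.7%, was close to the 22.5% of all named genes. The rises were led by the fatty acid elongase elovl2 (2.04, SE 0.16) and the low density lipoprotein receptor gene ldlra (2.00, SE 0.19). Without pair 4 the count of 7 was 3, and it was 4 without replicate 2 or 3 of 3 dpf or replicate 1 or 2 of 4 dpf. The fall, that of hmgcrb of cholesterol synthesis (-0.50, SE 0.11), was lost without replicate 1 or 2 of 3 dpf, replicate 2 or 3 of 4 dpf or pair 4.

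Lipid carriers moved both ways, 7 of 22 higher and 6 lower (median -0.06). Apolipoprotein apoa1b, at background on all 3 dpf arrays, was at least 8.88-fold higher at 4 dpf (adjusted p = 0.000124), and hepatic lipase lipca (change 2.57) and mogat2, which rebuilds triglyceride in enterocytes (2.35), rose. Apolipoproteins that package lipid in the yolk syncytial layer as well as in later organs fell. For apoa4a the signals were 10.06, 9.11, 8.77 and 7.20 at 4 dpf, against 11.52, 10.51, 10.76 and 10.94 at 3 dpf (change -2.15, SE 0.37, adjusted p = 0.00564), with replicate 4 lowest at 4 dpf and no overlap. The very abundant apobb.1 had 14.98, 14.80, 15.06 and 14.10 at 4 dpf, against 15.50, 15.57, 15.66 and 15.66 at 3 dpf (change -0.86, SE 0.17, adjusted p = 0.0124). The fatty acid binding gene fabp4b fell by 2.31 (SE 0.57, adjusted p = 0.027) and plin6, a lipid droplet coat protein of pigment cells that is outside the list, by 2.32 (SE 0.39, adjusted p = 0.0052). The call of fabp4b held in 2 of the 8 analyses that left out 1 pool. Over those analyses the count of 6 that fell was 2 without replicate 1 or 2 of 3 dpf, replicate 3 of 4 dpf or pair 4, and 3 without replicate 2 of 4 dpf.

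In the endocrine pancreas list, of the same organ, 2 of 13 genes rose and 4 fell (46.2% called, median 0.13). Insulin, ins, had 13.11, 12.30, 11.98 and 11.36 at 4 dpf, against 12.53, 12.22, 11.58 and 11.89 at 3 dpf (change 0.13, SE 0.23, adjusted p = 0.783), and the groups overlapped. Glucagon, gcga, changed by 0.37 (SE 0.20, adjusted p = 0.292). The 2 that rose encode hormones of gut and islet. For ghrl, which encodes ghrelin, signals were 7.71, 7.45, 7.07 and 6.67 at 4 dpf, against 5.44, 5.57, 5.01 and 5.72 at 3 dpf (change 1.79, SE 0.37, adjusted p = 0.0137), and gip was at least 7.94-fold higher. The 4 genes that fell were insb, an insulin copy of early embryos (-0.88, SE 0.18), and the transcription factors nkx6.1 (-0.79, SE 0.11), mnx1 (-0.74, SE 0.19) and nkx2.2a (-0.39, SE 0.09), which are also used in the nervous system. Of them nkx6.1 kept its call in all 18 alternative analyses, and without pair 4 it was the only one of the 4 called (count of 1). Without replicate 1, 2 or 3 of 3 dpf or replicate 2 or 3 of 4 dpf, the count was 2.

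Clock genes changed in both directions, 10 of 33 higher and 12 lower (66.7% called, against 22.5% of all named genes, median -0.24). The largest fall was that of per1b, a period gene of the repressing arm, with log2 signals of 6.80, 6.67, 6.88 and 6.82 at 4 dpf, against 12.05, 11.65, 11.46 and 11.55 at 3 dpf. That is a 29.5-fold lower signal at 4 dpf (change -4.88, SE 0.16, adjusted p = 6.86e-07), and within a stage the pools lay close together. The related per3 had 2.49, 2.42, 3.28 and 2.99 at 4 dpf, where 2 of 4 arrays were well above background, against 6.74, 6.51, 6.09 and 6.38 at 3 dpf (change -3.63, SE 0.23, adjusted p = 2.6e-05). The Rev-erb gene nr1d1, a repressor of bmal transcription, had 3.27, 6.54, 4.24 and 4.15 at 4 dpf, against 8.10, 8.29, 8.19 and 8.50 at 3 dpf (change -3.72, SE 0.51, adjusted p = 0.00188). Replicate 2 was the highest of the 4 dpf pools for nr1d1 and still below the 3 dpf pools.

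The genes tefa, cry5, cry2 and bhlhe40 fell by between 2.01 and 1.83. The activator of D-box genes tefa had 10.22, 9.85, 9.47 and 9.45 at 4 dpf, against 12.17, 11.92, 11.50 and 11.46 at 3 dpf (change -2.01, SE 0.09, adjusted p = 5.27e-06). Changes of -1.98 (SE 0.14) for the photolyase-like cry5, -1.87 (SE 0.14) for the cryptochrome cry2 and -1.83 (SE 0.15) for bhlhe40, a repressor of E-box genes, had adjusted p of 6.58e-05, 8.27e-05 and 0.000111. None of these groups overlapped. Smaller falls were those of tefb (-0.92, SE 0.20), rorb (-0.67, SE 0.14), cry1b (-0.58, SE 0.15) and the casein kinases csnk1da (-0.50, SE 0.10) and csnk1db (-0.27, SE 0.08), which phosphorylate period proteins. Of the 8 analyses without 1 pool, the call of csnk1da held in 8, those of tefb and rorb in 4, that of cry1b in 2 and that of csnk1db in 0.

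In the activating arm, clocka, clockb, bmal1a, bmal1b and bmal2 rose. For clocka signals were 5.98, 6.08, 5.99 and 6.21 at 4 dpf, against 4.57, 4.81, 4.81 and 4.74 at 3 dpf (change 1.34, SE 0.15, adjusted p = 0.000792). For bmal1b they were 9.53, 9.75, 9.91 and 10.04 at 4 dpf, against 8.59, 8.40, 8.88 and 8.83 at 3 dpf (change 1.13, SE 0.13, adjusted p = 0.000665), and bmal1a changed by 0.74 (SE 0.11, adjusted p = 0.00332). Neither clocka nor bmal1b overlapped between the stages. Increases of 0.59 (SE 0.16) for clockb and 0.54 (SE 0.15) for bmal2 also passed, with adjusted p of 0.0366 and 0.0466, but held in 1 and 2 of the 8 analyses without 1 pool.

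Among the cryptochromes, cry5, cry2 and cry1b fell and cry3b rose, with 7.67, 7.35, 8.02 and 7.75 at 4 dpf, against 5.76, 5.62, 5.26 and 5.22 at 3 dpf (change 2.23, SE 0.23, adjusted p = 0.000405). The rise of cry3a was 1.12 (SE 0.14) and that of cry4 0.54 (SE 0.13), a call that held in 2 of the 8 analyses without 1 pool. The nuclear receptor rorca, an activator of bmal transcription (0.98, SE 0.21), and hlfa, a relative of tefa (0.90, SE 0.15), rose as well, the call of rorca holding in 4 of those 8. Signals of per2, which light induces, were 6.61, 7.38, 7.61 and 7.61 at 4 dpf, against 7.09, 7.55, 7.88 and 7.63 at 3 dpf, and overlapped (change -0.24, SE 0.12, adjusted p = 0.256). The brightest probe of per1a changed by -0.21 (SE 0.20, adjusted p = 0.561), whereas its other probe changed by -2.99. Other members that did not pass were nr1d2a (-0.32), roraa (-0.28), rorab (-0.12), bhlhe41 (-0.64), nfil3 (0.31), nfil3-6 (-0.55), csnk1e (0.22) and npas2 (1.03). The pineal melatonin enzyme gene aanat2 was well above background on 1 of the 8 arrays and had no usable spot on another (change -0.01, SE 0.12). Without replicate 3 of 4 dpf or without pair 4 the count of 10 that rose was 6.

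**Figure D3:**
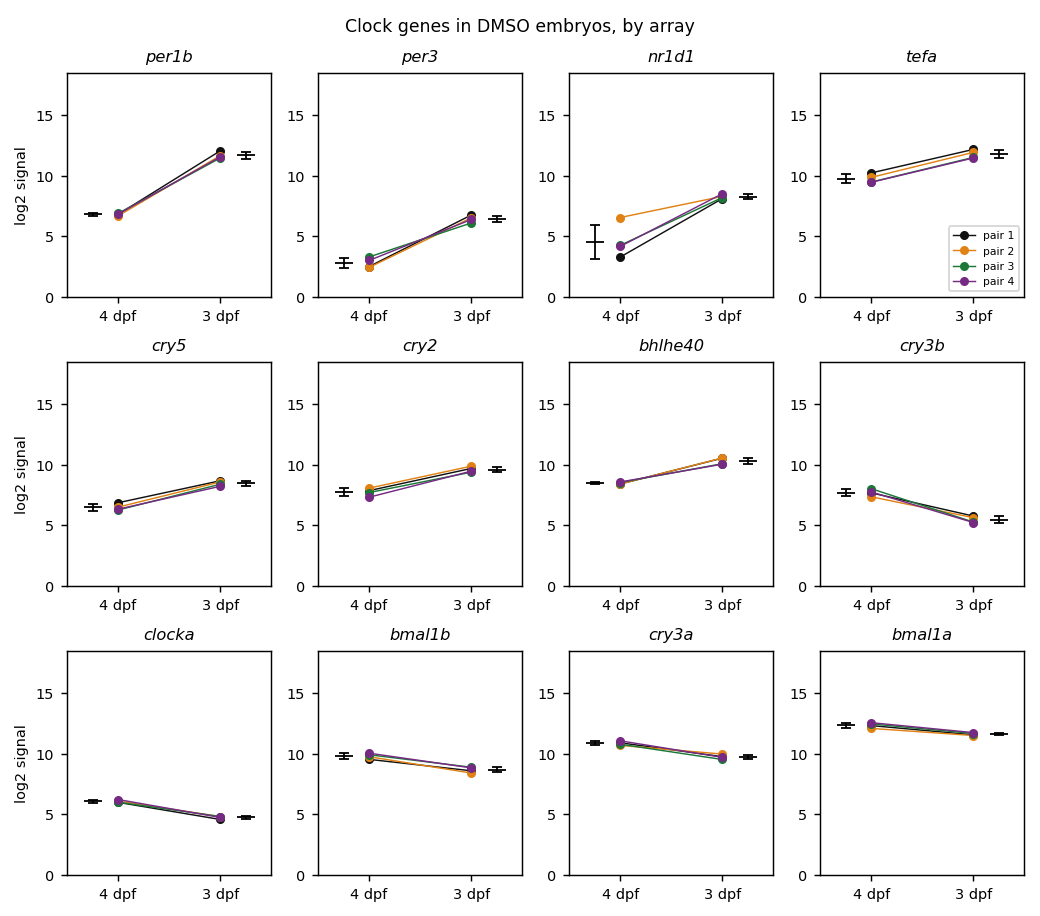
Log2 signal of 12 clock genes on each array, 4 dpf DMSO on the left and 3 dpf DMSO on the right of each panel, with lines joining pairs and black bars for the mean and SD (n = 4). The first 7 genes were lower in every 4 dpf pool and the last 5 higher. The 12 were picked among called clock genes, so this separation was largely set by the choice. For nr1d1 replicate 2 (6.54) stood above the other 4 dpf pools.

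Several of these clock genes had been level at 1, 2 and 3 dpf, when harvests fell at the same hour of the day. The mean of tefa was 11.75, 11.75 and 11.76 at 1, 2 and 3 dpf and 9.75 at 4 dpf. That of per1b was 11.45, 11.86 and 11.68 and then 6.79, that of cry2 9.52, 9.63 and 9.60 and then 7.73, and that of bmal1b 8.54, 8.42 and 8.68 and then 9.81. The Rev-erb gene nr1d1 did not share this course, with 5.15, 6.06, 8.27 and 4.55. In a search made after the data were seen, 567 genes that passed, changed at least 2-fold and were above background on all 4 arrays of 3 dpf were asked whether their means over 1 to 3 dpf lay within 0.5 of each other. That held for 51 genes (8.99%), 33 higher and 18 lower at 4 dpf. It held for 6 of the 11 clock genes among those searched (5 lower, 1 higher), and not for nr1d1, cry5, clocka, cry3a and cry3b. Among the others were the heat shock transcription factor hsf2, with means of 10.36, 10.26, 10.33 and 8.54, and dusp23a, which encodes a phosphatase, with 6.55, 6.46, 6.52 and 9.44. Whether these changes follow the hour or the stage cannot be told apart.

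**Figure D4:**
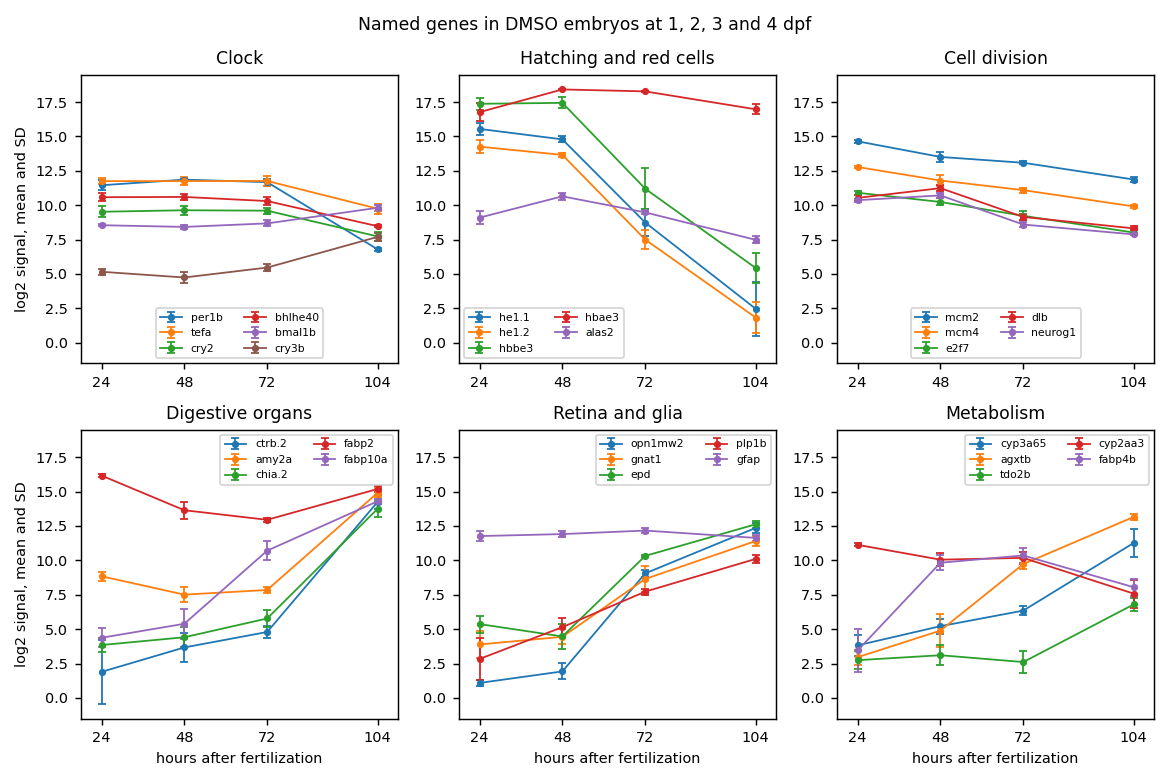
Mean log2 signal (error bars: SD, n = 3 at 24 and 48 hpf and n = 4 at 72 and 104 hpf) of named genes in DMSO embryos against hours after fertilization, in 6 panels by function. The means of tefa (11.75, 11.75, 11.76 and 9.75) were level until 72 hpf, whereas those of mcm2 (14.64, 13.51, 13.08 and 11.87) declined over every interval.

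Of 8 genes in the hatching gland list 3 rose and 2 fell (62.5% called), the falls being those of the hatching enzymes themselves. The metalloprotease gene he1.1, whose product digests the chorion, had 5.15, 2.14, 0.37 and 2.22 at 4 dpf, against 9.86, 9.20, 7.89 and 8.02 at 3 dpf (change -6.27, SE 0.70, adjusted p = 0.000691). Its copy he1.2 had 3.48, 1.52, 0.80 and 1.53 at 4 dpf, against 8.29, 7.89, 6.90 and 6.92 at 3 dpf (change -5.67, SE 0.46, adjusted p = 0.000115). Only replicate 1 stood above the rest at 4 dpf, and each gene was well above background on 1 of the 4 arrays of that stage. Both had been at 13.66 or more at 2 dpf on average (14.79 for he1.1). The list also holds c6ast4 and c6ast3, astacin metalloproteases placed there by protein family, which rose. For c6ast4, among the 12 largest rises, signals were 13.80, 13.90, 13.62 and 13.38 at 4 dpf, against 1.72, 2.01, 4.49 and 3.71 at 3 dpf (change 10.69, SE 0.66, adjusted p = 2.47e-05), where 2 of 4 arrays were well above background. For c6ast3 the change was 4.96 (SE 0.33), again with 2 of 4 arrays of 3 dpf well above background. The tetraspanin cd63 rose by 0.44 (SE 0.09), and the hatching gland regulators klf17 (-0.47) and xbp1 (-0.28), looked up outside the naming rule, did not pass.

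Of 21 erythroid genes 6 fell and 0 rose (28.6% called, against 22.5% of all named genes), with a median of -0.61. The embryonic beta globin hbbe3 had 6.22, 5.67, 5.98 and 3.88 at 4 dpf, against 13.17, 11.47, 9.78 and 10.37 at 3 dpf (change -5.76, SE 0.55, adjusted p = 0.000296). Its mean had been 17.37 and 17.44 at 1 and 2 dpf, and its other probe changed by -1.72. The first enzyme of haem synthesis in red cells, alas2, had 7.81, 7.22, 7.38 and 7.52 at 4 dpf, against 9.61, 9.52, 9.46 and 9.31 at 3 dpf (change -1.99, SE 0.21, adjusted p = 0.000525). Alpha globins hbae3 and hbae1.1 fell by 1.30 (SE 0.26) and 1.39 (SE 0.26). The groups of these 4 genes did not overlap. Globins hbbe2 (-0.61), hbba2 (-0.34) and hbaa2 (-0.07) did not pass; these 3 were named after their values were seen. Probes of near-identical globins may share targets, which was not tested.

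Of 59 cell division genes 26 fell and 0 rose (44.1% called, against 22.5% of all named genes), with a median of -0.46. Among them were all of mcm2 to mcm7, the subunits of the helicase that is loaded at replication origins, with changes between -1.22 and -0.93. For mcm2 signals were 12.09, 11.68, 11.84 and 11.86 at 4 dpf, against 13.22, 13.15, 12.98 and 13.00 at 3 dpf (change -1.22, SE 0.13, adjusted p = 0.00064). The cell cycle repressor e2f7 had 8.25, 7.89, 7.90 and 8.01 at 4 dpf, against 9.55, 9.47, 8.95 and 8.94 at 3 dpf (change -1.22, SE 0.13, adjusted p = 0.000583). Neither overlapped. Both fell over the whole course, the means of mcm2 being 14.64, 13.51, 13.08 and 11.87 at 1, 2, 3 and 4 dpf. The licensing factor cdt1 passed too, although it was at background on all 4 arrays of 4 dpf and well above it on 1 of 4 at 3 dpf. Of genes that act in mitosis ccnb1 fell (-0.47, SE 0.11), and cdk1 (0.07), ccnb2 (-0.05), ube2c (-0.04) and plk1 (-0.30) did not pass. These, like mcm3, mcm5, mcm6 and mcm7, were named after their values were seen, and they do not stand for the other mitosis genes listed. Across the list, called or not, 58 of 59 changes were negative, and that of cdk1 was the only positive one. The count of 26 was 14 without replicate 2 of 3 dpf, 15 without replicate 3 of 4 dpf, 16 without pair 4, without replicate 2 of 4 dpf or with no replicate block, and 17 without replicate 1 of 3 dpf.

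Of 37 neurogenesis and Notch genes 8 fell and 0 rose (median -0.34), and the share called, 21.6%, was close to the 22.5% of all named genes. The proneural factor neurog1 had 7.90, 7.82, 7.92 and 7.86 at 4 dpf, against 8.76, 8.71, 8.40 and 8.50 at 3 dpf (change -0.72, SE 0.12, adjusted p = 0.00493). The Notch ligand gene dlb changed by -0.83 (SE 0.14) and the Notch targets her13 and heyl by -1.05 (SE 0.19) and -0.83 (SE 0.15). All 4 were without overlap between the stages. The count of 8 was 5 without replicate 2 or 3 of 3 dpf, replicate 3 of 4 dpf or pair 4, and 3 with no replicate block.

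Photoreceptor genes rose, 24 of 39 with 0 lower (61.5% called, against 22.5% of all named genes) and a median of 1.35. The green cone opsin opn1mw2 had 12.46, 12.16, 11.97 and 12.86 at 4 dpf, against 8.76, 8.97, 9.23 and 9.26 at 3 dpf (change 3.31, SE 0.25, adjusted p = 7.46e-05). The rod transducin gnat1 had 10.96, 11.31, 11.74 and 11.62 at 4 dpf, against 7.36, 8.44, 9.35 and 9.44 at 3 dpf (change 2.76, SE 0.25, adjusted p = 0.000215). Both were higher in all pairs, and replicate 1 was the lowest of each stage for gnat1. The phosphodiesterase subunit pde6ga rose by 2.89 (SE 0.45), and guca1aa, which restores cGMP after light, was at least 4.82-fold higher. Of the green opsins opn1mw1 also rose (2.25), while opn1mw3 (0.36) and opn1mw4 (-0.01) did not pass. These were named after their values were seen. The count of 24 was 15 without pair 4. In the lens list, of crystallins with some membrane and filament genes, 2 of 36 rose and 3 fell. Its share called was 13.9%, against 22.5% of all named genes. Alpha crystallin cryaa overlapped between the stages (change -0.19, SE 0.17, adjusted p = 0.555), while crygn1 (2.56, SE 0.23) and crybgx (1.47, SE 0.16) rose. The 3 falls (crygmxl1 -0.97, crygs1 -0.86 and crybb1l3 -0.73) were lost without replicate 1 or 2 of 3 dpf or replicate 2 or 3 of 4 dpf, and 1 remained without pair 4.

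Of 19 genes of glia and myelin 4 rose and 5 fell (47.4% called, against 22.5% of all named genes), with a median of 0.00. The myelin protein gene plp1b had 9.86, 9.94, 10.16 and 10.46 at 4 dpf, against 7.59, 7.49, 7.85 and 7.97 at 3 dpf (change 2.38, SE 0.40, adjusted p = 0.00557). The oligodendrocyte claudin cldnk rose by 1.27 (SE 0.12), mpz by 1.00 (SE 0.19) and ependymin, epd, a secreted protein of meningeal cells, by 2.30 (SE 0.27). Groups of all 4 were apart. The falls of this list include apoeb and fabp7a, also members of the lipid carrier list, and nkx2.2a, also of the endocrine pancreas list. The falls of gfap (-0.53, SE 0.14), of the oligodendrocyte lineage factor olig2 (-0.55, SE 0.14), of apoeb (-0.67, SE 0.17), of fabp7a (-0.75, SE 0.21) and of nkx2.2a had adjusted p between 0.0248 and 0.0444. The number of falls was 0 without replicate 1 or 2 of 3 dpf or pair 4, 1 without replicate 3 of 3 dpf, without replicate 2 or 3 of 4 dpf or with no replicate block, and 3 without replicate 1 of 4 dpf.

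Among neuronal genes 11 of 56 rose and 2 fell (median 0.19), and the share called, 23.2%, was close to the 22.5% of all named genes. Parvalbumin pvalb7, a calcium buffer of Purkinje and other fast-firing neurons, averaged 12.06 at 4 dpf, with a highest pool of 12.13, against 8.51, 8.96, 9.05 and 9.43 at 3 dpf (change 3.07, SE 0.20, adjusted p = 3.54e-05). The synaptic gene snap25a changed by 0.43 (SE 0.10, adjusted p = 0.0233), and elavl3, expressed in newborn neurons, by -0.48 (SE 0.14, adjusted p = 0.0534). The call of snap25a held in 2 of the 8 analyses without 1 pool. Beta tubulin tubb5, abundant in growing axons, had 14.80, 14.94, 15.12 and 15.20 at 4 dpf, against 15.95, 16.09, 16.06 and 15.96 at 3 dpf (2-fold lower, SE 0.10 on the log2 scale, adjusted p = 0.000348). The count of 11 was 3 without replicate 3 of 4 dpf or with no replicate block, 5 without pair 4 and 7 without replicate 1, 2 or 3 of 3 dpf. The other fall, inab (-0.45), was lost in each of the 8 analyses without 1 pool. Of 22 neuropeptide genes 10 rose and 0 fell (45.5% called, against 22.5% of all named genes). Among the rises were adcyap1a (1.49, SE 0.22), the stress hormone gene crhb (1.27, SE 0.26) and npy, which stimulates appetite (1.14, SE 0.26). These calls held in 8, 6 and 4 of the 8 analyses without 1 pool. A second probe of adcyap1a changed by 0.77 and was not called.

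In the pituitary list 2 of 12 rose (16.7% called, against 22.5% of all named genes), and 0 with no replicate block. Growth hormone gh1 had 7.85, 8.54, 8.55 and 8.92 at 4 dpf, against 6.05, 7.40, 7.40 and 7.47 at 3 dpf (change 1.39, SE 0.34, adjusted p = 0.0266), and pomca, the precursor of adrenocorticotropin, rose by 0.56 (SE 0.09, adjusted p = 0.00543). The call of gh1 held in 1 of the 8 analyses without 1 pool and that of pomca in 8 of 8, so 1 gene was called in 7 of them. Prolactin, prl, was near background and did not pass (0.78, SE 0.58). In the thyroid list 2 of 11 genes rose and 1 fell (27.3% called, against 22.5% of all named genes). Of these dio1, the deiodinase of liver and kidney, rose by 2.20 (SE 0.18, adjusted p = 0.000112). The fall was that of dio2, which makes active hormone within tissues (-0.92, SE 0.18, adjusted p = 0.00931). Steroid related genes rose in 9 of 32 and fell in 1 (31.2% called), with srd5a2a, a steroid reductase, at 2.61 (SE 0.24) and cyp17a1, needed for cortisol and androgens, at -0.94 (SE 0.18). Without pair 4 the count of 9 was 5. Without replicate 1 of 4 dpf that of 1 was 2.

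Immune genes rose more often than they fell, 19 and 2 of 68 (30.9% called, against 22.5% of all named genes), with a median of 0.41. The peptidoglycan binding protein pglyrp6, well above background on 1 of 4 arrays of 3 dpf, rose by 3.92 (SE 0.41), granulin grna.1 by 3.42 (SE 0.24), and hepcidin, hamp, the liver hormone that limits iron uptake, by 2.01 (SE 0.23). For grna.1 signals were 11.53, 11.72, 11.17 and 11.44 at 4 dpf, against 8.49, 7.82, 7.67 and 8.18 at 3 dpf (adjusted p = 4.75e-05), without overlap. The macrophage marker mpeg1.1 changed by 0.53 (SE 0.11, adjusted p = 0.0114) with groups that overlapped, and the neutrophil marker mpx by -0.47 (SE 0.25, adjusted p = 0.273). The count of 19 was 11 without replicate 2 of 3 dpf or pair 4 and 12 without replicate 3 of 3 dpf or replicate 2 of 4 dpf. The falls of nos2a (-0.94) and illr4 (-0.93) were lost without replicate 1, 2 or 3 of 3 dpf, replicate 2 of 4 dpf or pair 4, and 1 remained without replicate 1 of 4 dpf.

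In a list of ionocyte and ammonia transport genes, 11 of 30 rose and 0 fell (36.7% called, median 0.51). Ionocytes are the ion-transporting cells of skin and gill, but rhag and ca2 of this list are also in the erythroid list. The ammonia transporter rhcgb had 10.00, 9.58, 10.04 and 9.64 at 4 dpf, against 6.77, 6.72, 7.41 and 7.32 at 3 dpf (change 2.76, SE 0.23, adjusted p = 0.00014), and the calcium channel trpv6 rose by 2.03 (SE 0.34). The carbonic anhydrase ca4b changed by 3.67 (SE 0.91, adjusted p = 0.0285), a call lost in each of the 8 analyses without 1 pool. Without pair 4 the count of 11 was 7. In a list of keratins, claudins and other epithelial genes 11 of 46 rose and 2 fell (28.3% called, against 22.5% of all named genes). The falls were those of cldnd (-1.02) and of agr1 (-0.86), which is neither a keratin nor a claudin. With no replicate block the count of 11 was 7. The skin keratin krt4 had 18.30, 18.13, 18.21 and 18.21 at 4 dpf, against 18.47, 18.52, 18.33 and 18.33 at 3 dpf (change -0.20, SE 0.09, adjusted p = 0.194). Keratin krt92 rose by 1.41 (SE 0.21), krt93 was at least 4.19-fold higher, and the tight junction claudins of the gut, cldn15la and cldn15lb, rose by 2.06 (SE 0.24) and 1.41 (SE 0.21).

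Of 73 sarcomere genes 5 rose and 5 fell (13.7% called, against 22.5% of all named genes, median 0.02). Myosin light chains of fast muscle, mylpfa (0.12, SE 0.26), and heart, myl7 (-0.09, SE 0.16), and the slow myosin smyhc1 (-0.06, SE 0.14) overlapped between the stages. Troponin tnni2a.1 rose by 2.45 (SE 0.21), the calcium pump atp2a2a by 1.36 (SE 0.14) and parvalbumin pvalb8 by 1.34 (SE 0.19), and the myosin chaperone unc45b fell by 1.15 (SE 0.17). The count of 5 that fell was 1 without replicate 2 of 3 dpf or pair 4, 2 without replicate 3 of 4 dpf, and 3 without replicate 1 of 3 dpf or replicate 2 of 4 dpf. Matrix genes rose in 4 of 47 and fell in 9 (27.7% called, against 22.5% of all named genes). Osteopontin, spp1, a bone matrix protein, had 9.64, 9.04, 9.24 and 9.21 at 4 dpf, against 7.31, 7.21, 6.62 and 6.94 at 3 dpf (change 2.26, SE 0.29, adjusted p = 0.00146). Laminin lama1 fell by 1.11 (SE 0.14) and the cartilage factor sox9a by 0.83 (SE 0.13). The count of 4 was 2 without replicate 2 of 3 dpf, and that of 9 was 3 without replicate 1 or 2 of 3 dpf or replicate 2 of 4 dpf and 4 without replicate 3 of 4 dpf or pair 4, and 2 with no replicate block.

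Of 43 genes of heat shock and stress 9 rose and 7 fell (37.2% called, median 0.12). The transcription factor hsf2 had 8.25, 8.72, 8.52 and 8.68 at 4 dpf, against 10.24, 10.32, 10.13 and 10.63 at 3 dpf (change -1.79, SE 0.14, adjusted p = 9.47e-05). The muscle chaperone hsp90aa1.1 fell by 1.69 (SE 0.23), whereas haem oxygenase hmox1a rose by 1.23 (SE 0.20), catalase, cat, by 0.98 (SE 0.13) and gpx1b by 0.82 (SE 0.10). Without pair 4 the count of 7 was 3, and with no replicate block those of 9 and 7 were 3 and 4. Of 74 genes listed by a ribosomal protein symbol 0 rose and 1 fell (1.35% called, median 0.05). The fall was that of rpl7l1 (-0.35, SE 0.10), a like-gene by its symbol and not a core ribosomal protein. Its call was kept without replicate 1 of either stage and lost without any other pool. Of 74 respiratory chain genes 4 rose (5.41%, median 0.14), among them cox6a2 (1.57, SE 0.19) and cox4i2 (1.42, SE 0.24). Germ line and yolk genes passed in 3 of 24 (12.5%, against 22.5% of all named genes). Besides ctsbb these were nanos3, needed by primordial germ cells (-1.20, SE 0.12), and the linker histone h1m (-0.89, SE 0.19). The count of 2 that fell was 4 without replicate 3 of 3 dpf and 1 without pair 4.

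The 12 largest falls included 5 genes outside the lists, cyp2aa3 and plin6 among them. The pterin synthesis gene gch2, used by yellow pigment cells, had 9.82, 8.40, 7.72 and 6.99 at 4 dpf, against 12.38, 12.05, 11.64 and 11.58 at 3 dpf (change -3.68, SE 0.42, adjusted p = 0.000799). The T-box factor tbx16l had 4.99, 4.35, 4.63 and 4.92 at 4 dpf, against 8.21, 7.86, 7.12 and 7.16 at 3 dpf (change -2.87, SE 0.28, adjusted p = 0.000344). Neither overlapped. The gene si:dkey-239j18.3 was at background on all 4 arrays of 4 dpf and at least 5.81-fold lower there than at 3 dpf (adjusted p = 6.23e-06), after means of 10.69 and 10.11 at 1 and 2 dpf.

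The pools exposed to E2 are other embryos at the same stages, taken to be of the same spawnings, and were compared in the same way. For replicates 3 and 4, the E2 arrays of each stage lay on the same slide as the DMSO arrays of that stage. For replicate 1, the arrays of both stages and treatments lay on 1 slide. Shared directions are therefore not an independent repeat of the stage change. Of the 2701 probes that rose in DMSO embryos, 2616 (96.9%) were also higher at 4 dpf in E2 embryos, and of the 3530 that fell, 3243 (91.9%) were lower, whereas 45.5% of all probes were higher and 54.5% lower. An adjusted p under 0.05 in both was found for 960 higher probes, 35.5% of those that rose in DMSO embryos. It was found for 418 lower probes, 11.8% of those that fell. Of all probes, 2.45% were called higher and 1.14% lower in E2 embryos. Without replicate 1 of 3 dpf E2, an array with 96.1% of its spots well above background, the shared directions were 2642 and 3436, and 2.79% of all probes were called higher and 1.4% lower. Replicate 4 of 4 dpf E2, with 529 outlier spots and 58.1% of its spots well above background, was kept throughout. A test of the difference between the stage changes in DMSO and E2 embryos was passed by 23 of 43603 probes (0.0527%), with 1414 at an unadjusted p under 0.05. Of the 10 named ones 8 were probes of vitellogenins, the yolk precursors that estrogen induces in liver. The change of vtg1 was -0.43 in DMSO embryos and 5.18 in E2 embryos (adjusted p for the difference 1.05e-07). The fetuin gene ahsg2 rose by 5.35 in DMSO embryos and by 2.98 in E2 embryos (adjusted p for the difference 0.00392). Of the 33 clock genes 0 passed this limma test, and 0 had an unadjusted p under 0.05. Their changes in DMSO and E2 embryos were -4.88 and -4.86 for per1b and -2.01 and -2.03 for tefa, but 2.23 and 3.36 for cry3b, 1.34 and 0.72 for clocka and -0.64 and 0.15 for bhlhe41.

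**Figure D5:**
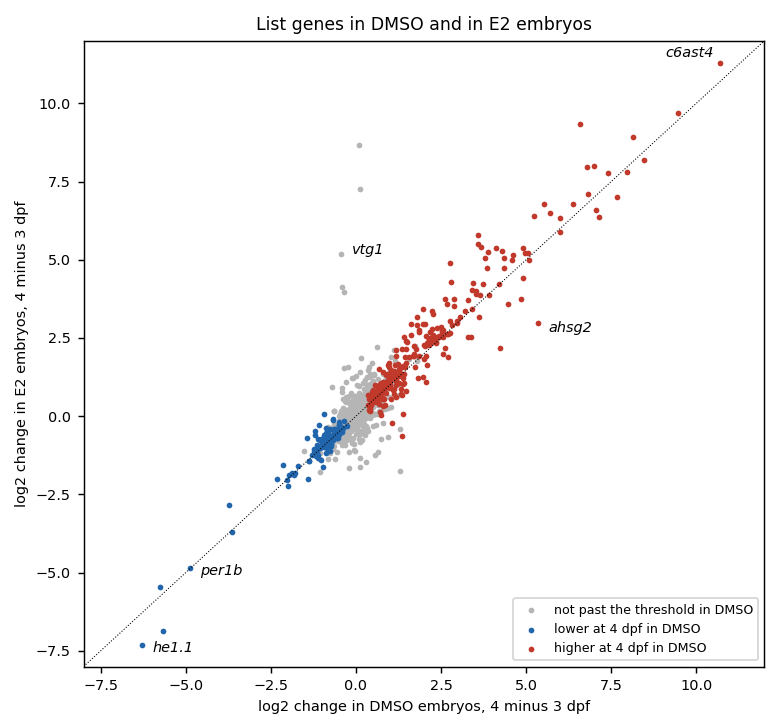
Log2 change between 4 and 3 dpf of the genes of all lists in DMSO embryos (x axis) and in E2 embryos (y axis), with a dotted line where both are equal. Red points rose and blue points fell in DMSO embryos (adjusted p under 0.05). Vitellogenins such as vtg1 (-0.43 in DMSO, 5.18 in E2) lie far above the line and ahsg2 (5.35 and 2.98) below it.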

How the data were processed

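Per the file headers, the authors scanned 1-colour Agilent arrays (1 per pool) and made the deposited intensity values with Feature Extraction 10.7.3.1 (the submitters' processing notes name 11.0.1.1), which subtracts background and detrends within each array. The deposited value table equals these signals in 1266160 of 1266160 entries. Control spots (1417) and outlier spots (4 to 23 per array) were left out, spots of a probe averaged, and log2 intensities of all 28 arrays quantile normalized. Differences were tested with limma 3.58.1 (R 4.3.3; lmFit and eBayes) on the 14 DMSO arrays with the replicate number as a block and Benjamini-Hochberg adjustment over 43603 probes. Deviations of same-numbered pools from their stage means correlated in 4 of 4 pairs (0.342 to 0.648), and numbers were taken to pair the pools. The median for different numbers was -0.263, but centring on stage means makes it negative where same-number values are positive. Arrays of pair 1 shared a slide and those of pairs 3 and 4 a scan day, so spawning and array handling cannot be told apart there. Pair 2, which shared neither, had 0.342. Tested on simulated data for 4 against 3 dpf in DMSO (43507 probes), the fit found 10%, 48%, 82% and 100% of log2 changes of 0.5, 1, 2 and 4, and called 6 unchanged probes. The simulated noise was independent and normal, with each probe's residual spread and no replicate, slide or scan day effects. A far smaller share of probes was changed than was called in the data, so these rates need not hold for the data.

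Names came from RefSeq accessions (15163 of 19212 matched, GRCz12tu gene table) and the study's probe list (558 probes). Of the 1392 list names 428 matched no named probe and were not analysed here, among them the markers slc15a1b, tfa, rho, opn1sw1, opn1lw1, lyz and mbpa. The 2 names tpx2 and cart1, which the table gives as synonyms of ephb2b and alx1, were left unmatched after their values were seen. Genes and lists were chosen with earlier results of these data known. Named genes are the 12 largest rises and falls among called genes with the same sign in all 4 pairs, up to 4 rises and 4 falls per list, defining markers and all clock genes. Arrays lay on 7 slides and were scanned in 3 batches by scan day. Alternatives changed the arrays fitted, the block, scaling, background correction, dim probe filter, weights and the pools left out.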

Additional observations from a re-analysis of the deposited data

Results flagged for a closer look

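Of 409 groups of 4 pools tested among named genes, 24 (5.87%) held 1 pool far from the other 3 by Dixon's ratio of its gap to the group's range, and chance flags about 1 in 20. Replicate 1 of 4 dpf stood apart for 6 genes, with ratios of 0.836 for amy2al2 (log2 signal 10.67, the others 12.01 to 12.28), 0.861 for bhlhe41, 0.832 for camk2a, 0.89 for hbae1.1, 0.946 for her13 and 0.857 for hspa4a. Replicate 2 of 4 dpf stood apart for 4 genes, at 0.831 for ctrb.2 (15.03, the others 13.87 to 14.07), 0.864 for ela3l, 0.831 for gip and 0.871 for nfil3, and was the highest in each. Replicate 4 of 4 dpf was the lowest for agxtb (0.886, signal 12.84, the others 13.25 to 13.30) and lipca (0.871).

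Replicate 1 of 3 dpf stood apart for 10 genes, with ratios of 0.924 for atp2a2a, 0.889 for cel.1, 0.854 for crhb, 0.897 for cry4, 0.919 for epd, 0.95 for gh1 (6.05, the others 7.40 to 7.47), 0.867 for heyl, 0.926 for hmgcrb, 0.911 for mnx1 and 0.962 for rorab. It was the lowest pool in all of these but epd. Replicate 2 of 3 dpf was the highest for cd63 (0.929) and the lowest for tpm1 (0.897).

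The change between 4 and 3 dpf differed between DMSO and E2 embryos for probes of 6 genes (vtg1, vtg3, vtg4, vtg5, ahsg2 and zgc:113054), of which 2, ahsg2 and vtg1, fall under the naming rule. It was 5.35 in DMSO and 2.98 in E2 embryos for ahsg2 (difference 2.37, limma adjusted p = 0.00392) and -0.43 in DMSO and 5.18 in E2 embryos for vtg1 (difference -5.61, adjusted p = 1.05e-07).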

How the results depend on the processing

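With the replicate number as a block, which pairs the pools, 2701 probes were higher and 3530 lower at 4 dpf. With no replicate block these were 1574 and 1173. With scan batch as the block 1587 were lower and with slide as a random block 2303. Leaving out 1 pool gave 1777 (without replicate 2 of 3 dpf) to 2260 higher probes and 1614 (without pair 4) to 3113 lower ones. The other alternatives stayed within 1.5 times, among them normexp on the median signal, chosen after seeing the data (3067 and 3857). Normexp on the mean signal was not run, since that column is not among those used here. Of 183 named genes that passed, 111 kept their call under all 18 alternatives, and of 3292 values 2766 kept the call, 526 lost it and 0 changed sign. The cause of these losses was not tested. Probes that differed between DMSO and E2 embryos were 23, against 26 without replicate 1 of 3 dpf E2 and 21 with no replicate block.

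Signs turned for 7 genes that had not passed. For aanat2 (-0.01) the change was 0.0343 with the 8 arrays compared, 0.0300 with their quantiles, 0.0317 with slide as a random block, 0.0127 with no replicate block, 0.0141 with array weights, 0.000241 with scan batch as the block, and -0.0643 to 0.0415 without 1 pool. Array weights gave -0.0710 for ins and 0.0348 for nfil3-6. For smyhc1 the change was 0.0438 with slide and 0.0317 with scan batch as the block. Without 1 pool it was -0.104 to 0.352 for ins, -0.227 to 0.0284 for myl7, -0.0111 to 0.268 for mylpfa and -0.217 to 0.0380 for rorab. Signal over background limits 87 called probes that were at background on all 8 arrays.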
